A study of Mus with 21 samples.

Results

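The ligands and receptors of the tumour necrosis factor (TNF) superfamily were followed in mouse skin wounds on Day 4. Members were taken by gene symbol alone, namely every symbol that begins with Tnfsf or Tnfrsf and a digit, together with Tnf, Lta, Ltb, Ltbr, Fas, Fasl, Cd40, Cd40lg, Cd27, Cd70, Ngfr, Edar, Eda and Eda2r. The rule found 45 of the 18806 symbols, of which 18 are ligands and 27 are receptors, and it used no measured value. The study asked how the pH of a wound dressing bears on the action of aFGF and bFGF (acidic and basic fibroblast growth factor) in wound healing. All groups were wild-type C57BL/6 female mice, 8 weeks old, with round full-thickness wounds of 8 mm on the back that a splint held open. In 6 groups the wounds were filled with GelMA, a light-cured gelatin hydrogel, set to pH 6.4, 7.4 or 8.4 and loaded with aFGF or with bFGF. Group names join pH to growth factor (6.4/aFGF). Control wounds received no hydrogel, and none of the groups received a hydrogel without growth factor, so the gel and the growth factor cannot be told apart against control. Each of the 7 groups had 3 libraries, numbered 1 to 3, labelled as biological replicates, with 3 mice per group in the study's methods. Whether the wounds of 1 mouse were pooled, and whether each library came from its own mouse, is not given in the sources used here.

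TNF ligands are mostly trimers on the cell surface or shed from it, and each binds 1 or a few receptors of the family. Receptors with a death domain can start cell death. Many receptors, with or without that domain, act through TRAF adaptor proteins and activate NF-kappa B. Decoy receptors bind a ligand without passing on a full signal. In skin wounds the family is known for inflammation through Tnf, for the recruitment and costimulation of leukocytes, and for exchange between immune cells, fibroblasts and keratinocytes.

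Total counts per library ranged from 34362558 to 37817833 (median 36771838), which is a narrow range of depth. Levels below are CPM (counts divided by TMM-adjusted library sizes), which compare libraries within 1 gene, or FPKM (also divided by gene length), which compare genes. Markers of skin were present in every library, with Krt14 of basal keratinocytes at 1178 to 2942 CPM and the fibroblast collagen gene Col1a1 at 9042 to 22140 CPM, whereas Krt25 of the hair follicle had 0 counts in 18 of 21 libraries. A few libraries stood apart. The 10 cartilage and bone genes summed to 407 CPM in 7.4/aFGF library 3 and to at most 10.1 CPM in any other library, and the 10 ovary and oviduct genes reached 1014 CPM in 8.4/bFGF library 2 against at most 395 CPM elsewhere. Inhba had the highest mean of these ovary and oviduct genes, at 124.9 CPM over the 21 libraries (highest 378.5). Hsd3b1 had a mean of 18.9 CPM and 0 counts in 14 libraries. The size of this sum elsewhere thus need not hold for the scarce genes. The 10 liver genes had a higher sum in 8.4/aFGF library 2 (283 CPM) than in the other 8.4/aFGF libraries (125.5 and 34.4 CPM). It was higher still in control libraries 1 and 3 (784 and 386 CPM), 7.4/bFGF library 3 (346 CPM) and 8.4/bFGF library 1 (346 CPM). Cyp2e1 weighed most in it, with a mean of 129.5 CPM over the 21 libraries (highest 757), against 13.2 CPM for Hpx and 10.0 CPM for Alb. This sum thus follows mostly 1 gene, and its ranking of libraries need not hold for the others. Control library 2 had a sum of 8950 CPM over 9 neutrophil genes, where the other controls had 1315 and 792 CPM, and 7.4/aFGF library 1 had a sum of 203 CPM over 8 T and NK cell genes, where the other libraries had 22.3 to 98.4 CPM. None of the 9 neutrophil genes or the 8 T and NK cell genes was at 0 in any library. In such bulk samples, fewer cells of a type and less RNA per cell cannot be told apart.

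Receptors made up most of the abundant members. Over the 21 libraries, 9 members had a mean above 10 FPKM, 8 receptors and 1 ligand, 22 lay between 1 and 10 FPKM and 14 were below 1 FPKM. Tnfrsf1a, the main death domain receptor of Tnf, led with 165 ± 21.7 FPKM (SD, n = 21), and 97.8% of all genes had a lower mean. Tnfrsf12a, the receptor of Tnfsf12 first known as a gene induced by fibroblast growth factor, followed with 64.2 ± 23.1 FPKM. The second Tnf receptor Tnfrsf1b, found mainly on leukocytes and endothelium, was at 61.6 ± 24.5 FPKM, and Ltbr, the lymphotoxin beta receptor, at 55.3 ± 4.33 FPKM. Ltbr varied least in relative terms among these receptors, with a coefficient of variation of 8.82% in CPM against 16.7% for Tnfrsf1a, 39.7% for Tnfrsf12a and 43.3% for Tnfrsf1b. The decoy receptor Tnfrsf23 (16.0 FPKM), the costimulatory receptor Tnfrsf9 (14.6 FPKM), the death receptors Fas (14.5 FPKM) and Tnfrsf21 (14.1 FPKM), Tnfrsf14 (9.32 FPKM) and Cd40, the receptor of the T cell ligand Cd40lg (9.29 FPKM), completed the 10 highest receptors.

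Among ligands, Tnfsf14 (also known as LIGHT, a ligand of Tnfrsf14 and Ltbr) was the most abundant, at 17.2 ± 10.0 FPKM. Ltb, the membrane partner of lymphotoxin alpha, had 9.97 FPKM, Tnf 8.42 FPKM, Tnfsf12 (TWEAK) 8.36 FPKM and Tnfsf9, the ligand of Tnfrsf9, 4.86 FPKM. Counts were found in every library for 41 members. The remaining 4 had 0 counts in some libraries, namely Edar in 7, Cd70 in 8, Cd40lg in 5 and Tnfrsf13c in 2 of 21. Such a 0 still allows up to 3 counts in that library, by counting error only. Pairs of ligand and receptor were often unequal, as for Tnfrsf12a with Tnfsf12, and for Cd40 with Cd40lg (0.177 FPKM). Tnfrsf22, Tnfrsf23 and Tnfrsf26 are close copies of each other, and Tnfsf12 and Tnfsf13 are overlapping neighbours in the genome, so their reads may have been split between them in ways the sources used here do not describe.

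**Figure D1:**
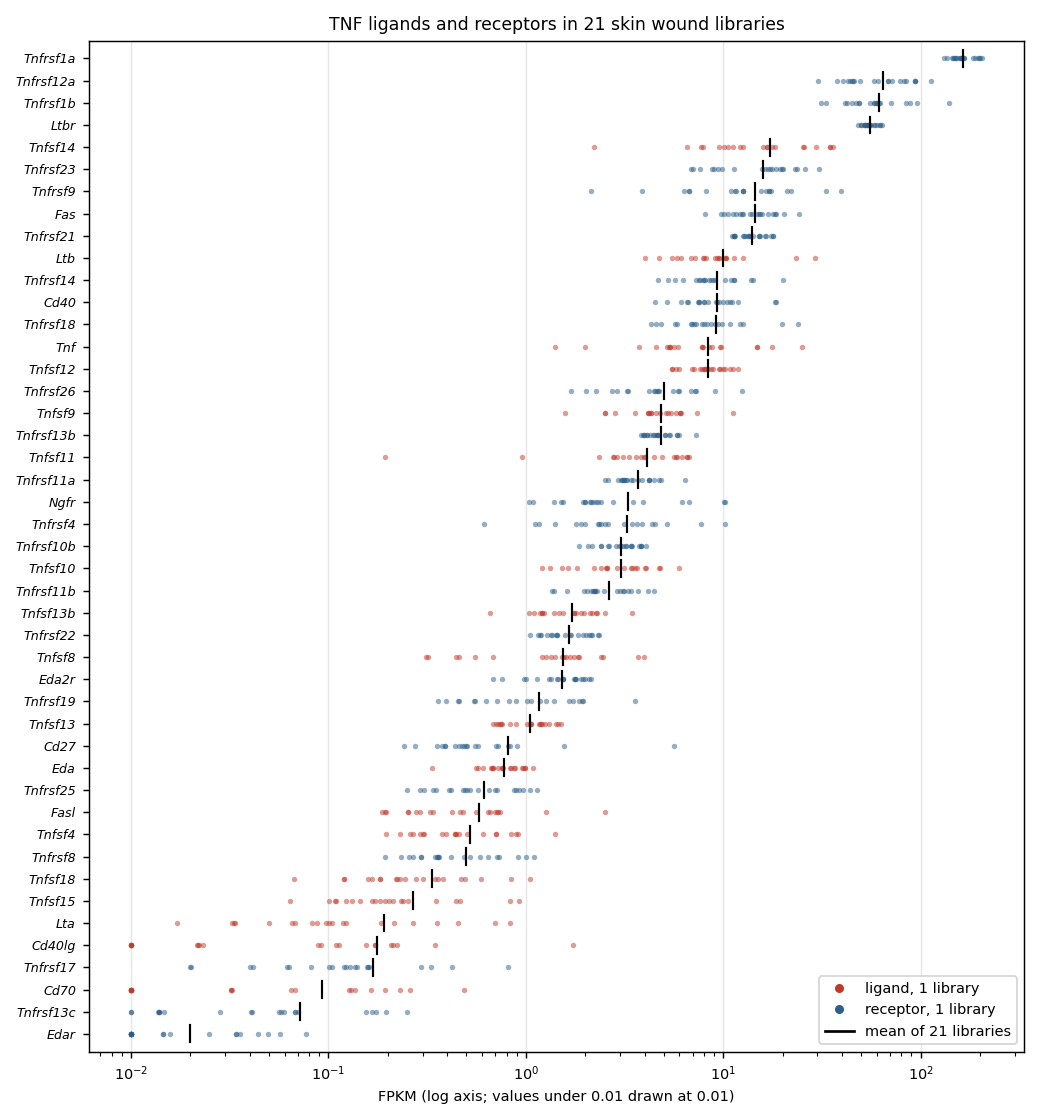
FPKM of each of the 45 members (rows, by mean) in each of the 21 libraries (points, log axis, values under 0.01 drawn at 0.01), ligands in red and receptors in blue, with the mean as a black line. Tnfrsf1a, Tnfrsf12a, Tnfrsf1b and Ltbr stand above the rest, Tnfsf14 is the highest ligand, and 14 members have a mean below 1 FPKM.

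Across all 7 groups, 0 of 44 tested members passed edgeR's quasi-likelihood test at a Benjamini-Hochberg adjusted p under 0.05, beside 0.114% of all 15811 genes tested. An unadjusted p under 0.05 was found for 10 of the 44 members, or 22.7%, beside 19.3% of all genes, and DESeq2 called 6 members, beside 11.0% of the 18714 genes it tested. The highest group mean was less than 1.5 times the lowest in 11 of the 45 members and more than 3 times in 12. In every comparison below a gene was called at an adjusted p under 0.05 with a log2 fold change beyond 0.58, and the tests were two-sided. The smallest adjusted p of a member was that of Tnfrsf12a (0.0631, edgeR). Without control library 2, edgeR called 4 members, Tnfrsf12a, Tnfsf14, Cd27 and Tnfsf11, beside 5.38% of 16069 genes. That library was singled out once results were known, and it was itself more than 2-fold above both other controls in Tnfsf14, Cd27 and Tnfsf11.

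Tnfsf14 had the widest range of group means among the abundant ligands. It was at 19.9, 19.65 and 14.7 CPM in the 6.4/aFGF libraries and at 50.55, 31.1 and 63.1 CPM in 7.4/aFGF. The 8.4/aFGF libraries had 36.9, 31.7 and 64.8 CPM. Thus the 6.4/aFGF libraries all lay below the other aFGF libraries, while 7.4/aFGF and 8.4/aFGF overlapped. With bFGF, Tnfsf14 was at 14.3, 21.6 and 34.8 CPM at pH 6.4, at 52.5, 45.8 and 31.9 CPM at pH 7.4, and at 22.2, 15.96 and 22.6 CPM at pH 8.4. Here the pH 8.4 libraries all lay below the pH 7.4 libraries, and those of pH 6.4 overlapped with both. In order of the mean, the groups were 7.4/aFGF (48.2 ± 16.1 CPM), 8.4/aFGF (44.4 ± 17.8), 7.4/bFGF (43.4 ± 10.5), control (29.0 ± 36.8), 6.4/bFGF (23.6 ± 10.4), 8.4/bFGF (20.3 ± 3.73) and 6.4/aFGF (18.1 ± 2.94; SD, n = 3 each). The first 3 groups lay within each other's spread, as did the last 3. The controls, at 11.7, 71.3 and 3.97 CPM, spanned the whole range, and their high value was library 2 with its neutrophil sum of 8950 CPM.

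The study chose Tnfsf14 from its own comparison of 6.4/aFGF with 7.4/aFGF on these samples, so its difference there is no independent evidence. In that comparison its log2 fold change was -1.42 ± 0.27 (SE), with an adjusted p of 0.832 in edgeR's test. DESeq2 called it (adjusted p = 0.00576). At pH 8.4 against 7.4 with aFGF, the log2 fold change was -0.13, with a 95% interval of -0.98 to 0.71. With bFGF it was -0.86 ± 0.35 at pH 6.4 against 7.4 (edgeR adjusted p = 0.558) and -1.08 ± 0.24 at pH 8.4 against 7.4 (edgeR adjusted p = 0.861), the latter called by DESeq2 (adjusted p = 0.0173). The pair of comparisons with each growth factor shares its pH 7.4 libraries. Whether the pH difference depended on the growth factor was tested as an interaction, which gave -0.56 (95% interval -1.62 to 0.50, edgeR adjusted p = 0.856) for pH 6.4 and 0.96 (-0.05 to 1.97, edgeR adjusted p = 0.993) for pH 8.4, the second a later addition. The direct comparison at pH 8.4 had 8.4/aFGF above 8.4/bFGF in all libraries, by 1.13 ± 0.29 on the log2 scale (edgeR adjusted p = 0.127), and DESeq2 called it (adjusted p = 0.00911). At pH 7.4 the difference between growth factors was 0.15 (-0.59 to 0.90) and at pH 6.4 it was -0.39 (-1.14 to 0.36).

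Sums over some marker lists differed between groups in some of the comparisons where Tnfsf14 did, and others overlapped. The 15 interferon response genes summed to 722 to 1243 CPM in 6.4/aFGF and to 1308 to 2712 CPM in 7.4/aFGF, and all 15 were lower at pH 6.4. In 8.4/bFGF they summed to 479.5 to 816 CPM against 865 to 1128 CPM in 7.4/bFGF, again with all 15 lower. Neither pair of groups overlapped. Between 8.4/aFGF (676 to 1552 CPM) and 8.4/bFGF, where Tnfsf14 did not overlap, these sums did. Against 7.4/aFGF, all 15 genes were also lower in 8.4/aFGF (median log2 fold change -0.82), where the log2 fold change of Tnfsf14 was -0.13. All 8 T and NK cell genes were lower than in 7.4/aFGF, both in 6.4/aFGF (median -1.66) and in 8.4/aFGF (median -1.82). Of these, 0 and 4 had an unadjusted p under 0.05, beside 2.86% and 2.22% of all genes lower. Their sums overlapped, and 7.4/aFGF library 1 held the highest, 203 CPM. In 8.4/bFGF, 5 of the 8 were higher and 3 lower than in 7.4/bFGF. The 9 macrophage and monocyte genes did not overlap between 8.4/bFGF (4962 to 6602 CPM) and 7.4/bFGF (6913 to 7158 CPM), and they did between 6.4/aFGF (6528 to 8677 CPM) and 7.4/aFGF (7276 to 10320 CPM). The sum over neutrophil genes overlapped in both, at 4248 to 8342 CPM in 6.4/aFGF and 5331 to 7194 CPM in 7.4/aFGF, and at 3758 to 9506 CPM in 8.4/bFGF and 4585 to 13430 CPM in 7.4/bFGF, although all 9 of these genes were lower in 8.4/bFGF by their fitted values, with a median log2 fold change of -0.54. Between 8.4/aFGF and 8.4/bFGF, the macrophage and monocyte sum did not overlap (7038 to 10890 CPM against 4962 to 6602 CPM). There all 9 neutrophil genes were higher with aFGF (median log2 fold change 1.17), 4 with an unadjusted p under 0.05, beside 11.7% of all genes higher. Their sum overlapped, at 4954 to 11650 CPM in 8.4/aFGF. The part of these lists in the differences of Tnfsf14 was not tested.

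**Figure D2:**
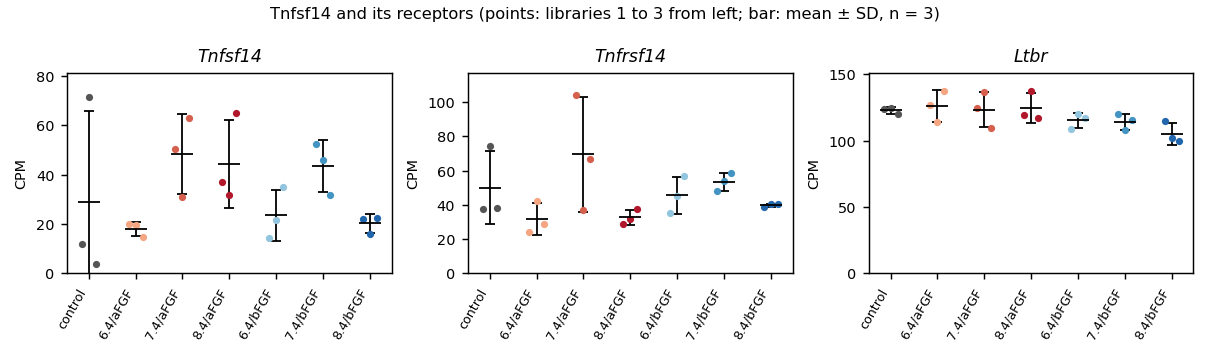
CPM of Tnfsf14 and its receptors Tnfrsf14 and Ltbr in each library (points, libraries 1 to 3 from the left) with the group mean and SD (bars, n = 3; an SD bar that would reach below 0 is cut at 0). Tnfsf14 lies at 14.7 to 19.9 CPM in 6.4/aFGF and at 31.1 to 64.8 CPM in the other aFGF groups, while Ltbr stays between 99.5 and 137.5 CPM throughout.

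Its receptors differed from each other in their spread. Tnfrsf14 (HVEM), which acts on T cells and other leukocytes, was at 24.2, 42.6 and 28.65 CPM in 6.4/aFGF, at 104, 37.2 and 66.95 CPM in 7.4/aFGF and at 29.1, 31.7 and 37.4 CPM in 8.4/aFGF. Library 1 of 7.4/aFGF, with its T and NK cell sum of 203 CPM, held the highest value of all. Against 7.4/aFGF, the log2 fold change was -1.13 ± 0.39 in 6.4/aFGF (edgeR adjusted p = 0.832) and -1.09 ± 0.35 in 8.4/aFGF (edgeR adjusted p = 1.00). Without that library these became -0.73 and -0.70. With bFGF, Tnfrsf14 was at 35.2, 45.2 and 56.8 CPM at pH 6.4, at 47.95, 54.2 and 58.5 CPM at pH 7.4 and at 38.8, 40.4 and 40.4 CPM at pH 8.4. The pH 8.4 libraries were all below those of pH 7.4, by 0.40 ± 0.08 on the log2 scale (edgeR adjusted p = 0.861). Ltbr, in contrast, had group means of 105 to 126 CPM, and its log2 fold change against pH 7.4 was 0.03 (95% interval -0.28 to 0.34) in 6.4/aFGF, 0.00 (-0.29 to 0.29) in 8.4/aFGF, 0.03 (-0.18 to 0.25) in 6.4/bFGF and -0.10 (-0.32 to 0.12) in 8.4/bFGF.

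Both members that passed edgeR's test with all libraries did so between the growth factors. The comparison of the 3 aFGF groups with the 3 bFGF groups over all pH values was chosen with the data in view. In it 2 of 42 tested members were called by edgeR, Tnfrsf12a and Tnfrsf18, both higher with aFGF, beside 3.77% of all 15696 genes. An unadjusted p under 0.05 was found for 10 of the 42, of which 8 were higher with aFGF, beside 29.9% of all genes in either direction and 15.7% higher. DESeq2 called 4 members, Tnfrsf12a, Tnfrsf18, Ngfr and Tnfsf15, beside 4.57% of its genes. The median log2 fold change was 0.08 in receptors and 0.19 in ligands, and it was -0.00119 over all genes. Of the 9 members with an unadjusted p under 0.05 among the 25 tested receptors, 7 were higher with aFGF, and Tnfsf15 was the single one among 17 tested ligands (log2 fold change 1.34, edgeR adjusted p = 0.0641), a gene of low counts named after its values had been seen.

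Tnfrsf12a was at 94.6, 65.1 and 83.3 CPM in 6.4/aFGF, at 94.9, 75.85 and 64.3 CPM in 7.4/aFGF and at 121, 92.9 and 79.1 CPM in 8.4/aFGF. With bFGF it was at 42.0, 60.4 and 56.7 CPM at pH 6.4, at 27.6, 35.4 and 45.8 CPM at pH 7.4 and at 42.8, 42.8 and 42.6 CPM at pH 8.4. All 9 aFGF libraries were above all 9 bFGF libraries. Groups did not overlap in this way in 2 of the 42 members, the other being Tnfrsf11a, both higher with aFGF, and in 0.663% of all genes tested, or 0.389% when higher. The log2 fold change over the 3 pH values was 0.97 ± 0.12 (edgeR adjusted p = 0.00130). Within each pH it was 0.60 ± 0.19 at pH 6.4 (adjusted p = 0.590), 1.12 ± 0.21 at pH 7.4 (adjusted p = 0.351) and 1.19 ± 0.16 at pH 8.4 (adjusted p = 0.0714), all by edgeR. DESeq2 called it at pH 7.4 and pH 8.4. The controls, at 39.8, 73.3 and 37.65 CPM, lay across the range of the bFGF libraries and reached into that of the aFGF libraries through library 2. Its ligand Tnfsf12 had group means of 12.1 to 16.5 CPM, and the log2 fold change between growth factors was -0.13 (95% interval -0.45 to 0.19). Leaving out any 1 of the 18 libraries kept the log2 fold change of Tnfrsf12a between 0.90 and 1.03, and it was called each time.

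Tnfrsf11a (RANK), the receptor of Tnfsf11 (RANKL) in bone resorption and in dendritic cells, was at 21.85 to 43.45 CPM (median 27.1) in the 9 aFGF libraries and at 15.9 to 21.7 CPM (median 19.5) in the 9 bFGF libraries. The groups did not overlap, with a difference of 0.53 ± 0.12 on the log2 scale (edgeR adjusted p = 0.0147), which is inside the fold threshold. Of the controls, at 27.8, 21.7 and 29.4 CPM, libraries 1 and 3 fell in the range of aFGF, and library 2 lay below all aFGF libraries. Tnfsf11 itself was at 5.21 to 14.5 CPM with aFGF and 7.25 to 15.2 CPM with bFGF, a log2 difference of -0.32 (95% interval -0.77 to 0.13), and the soluble decoy Tnfrsf11b had group means of 2.17 to 3.53 FPKM.

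Tnfrsf18 (GITR), a costimulatory receptor of regulatory and effector T cells, was higher with aFGF than with bFGF by 0.78 ± 0.23 on the log2 scale (edgeR adjusted p = 0.0403). It was at 8.18 to 25.95 CPM (median 9.99) against 4.21 to 11.4 CPM (median 5.85). The controls, at 6.88 to 21.7 CPM (mean 11.9), overlapped with both. The highest value, 25.95 CPM, was again 7.4/aFGF library 1. Without that library the log2 fold change was 0.60 and Tnfrsf18 was no longer called. The call was lost for 13 of the 18 libraries left out in turn, and it was kept without 6.4/aFGF library 2, 7.4/aFGF library 2 or 3, 6.4/bFGF library 3 or 7.4/bFGF library 3. Its ligand Tnfsf18 stayed below 2.10 CPM in every library. Tnfrsf1a was higher with aFGF by 0.33 ± 0.07 (edgeR adjusted p = 0.013) and the death domain receptor Tnfrsf21 lower by 0.29 ± 0.07 (edgeR adjusted p = 0.0238), both inside the fold threshold. Tnfrsf21 was at 40.3 to 53.7 CPM with aFGF and 43.8 to 66.1 CPM with bFGF.

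Several marker lists held genes that differed between the same libraries. The counts of genes below stand beside 3.77% of all 15696 genes called by edgeR and 29.9% with an unadjusted p under 0.05 in either direction. The 9 macrophage and monocyte genes summed to 6528 to 10890 CPM (median 8405) with aFGF and to 4962 to 8782 CPM (median 6913) with bFGF, and edgeR called 2 of them. The 15 interferon response genes summed to 676 to 2712 CPM (median 1243) and to 479.5 to 1128 CPM (median 865), with all 15 higher with aFGF and 3 called. The 7 fibroblast genes, all lower with aFGF, summed to 33270 to 52900 CPM (median 41740) and to 39920 to 73910 CPM (median 45030), with 0 called by edgeR and 3 at an unadjusted p under 0.05. The 8 hair follicle genes summed to 15.4 to 23.9 CPM (median 18.4) and to 19.9 to 39.0 CPM (median 29.05). Dsc2 weighed most in this sum, with a mean of 19.9 CPM over the 21 libraries, against 3.27 CPM for Lgr5. Of the 5 hair follicle genes tested, 2 were higher and 3 lower with aFGF (median log2 fold change -0.08), and 1 was called. Of the 9 liver genes tested, 5 were called higher with aFGF, with a median log2 fold change of 2.73. Over the liver genes tested at each pH, the median was 1.67 at pH 6.4, 0.79 at pH 7.4 and 3.71 at pH 8.4. The liver sums overlapped, at 34.4 to 283 CPM with aFGF, the highest in 8.4/aFGF library 2, and at 14.5 to 346 CPM with bFGF. Some of these genes were scarce, such as Ttr with 0 counts in 5 libraries. The T and NK cell sums had medians of 47.98 and 47.3 CPM, and the highest aFGF library after 7.4/aFGF library 1 had 62.3 CPM. The part of these lists in the receptor differences was not tested.

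**Figure D3:**
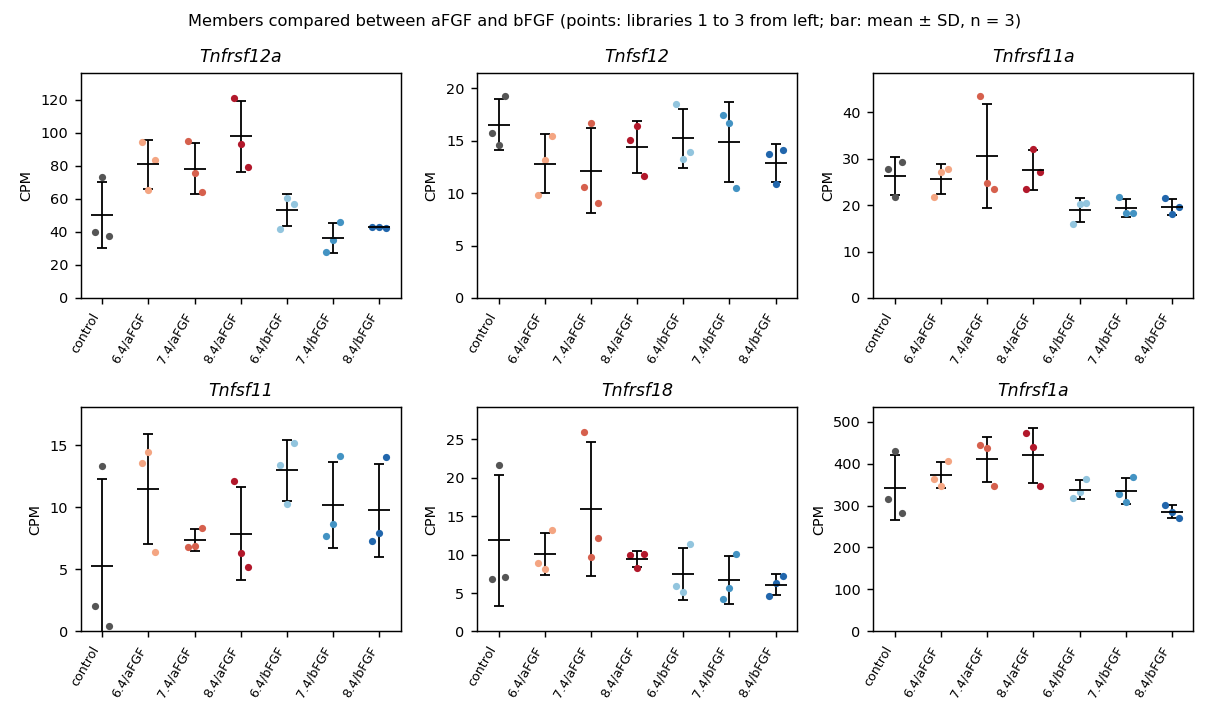
CPM of Tnfrsf12a, its ligand Tnfsf12, Tnfrsf11a, its ligand Tnfsf11, Tnfrsf18 and Tnfrsf1a in each library (points, libraries 1 to 3 from the left) with the group mean and SD (bars, n = 3; the SD bar of the Tnfsf11 controls is cut at 0). Tnfrsf12a lies at 64.3 to 121 CPM in the aFGF groups and at 27.6 to 60.4 CPM in the bFGF groups, whereas Tnfsf12 overlaps between them.

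At each pH separately, 0 members were called by edgeR between the growth factors. At pH 6.4, where 0% of 14994 genes were called, 5 of 40 tested members had an unadjusted p under 0.05, 3 higher and 2 lower with aFGF, beside 8.16% of all genes, 5.10% higher and 3.05% lower, and DESeq2 called 0, beside 0.661% of its genes. Groups did not overlap in 5 of the 40, beside 14.8% of all genes. The smallest p values were those of Tnfrsf21 (-0.40 ± 0.10, adjusted p = 0.587) and Tnfrsf9, also known as 4-1BB (-0.98 ± 0.26, adjusted p = 0.587, both edgeR). Tnfrsf9 was at 31.2, 26.9 and 15.1 CPM in 6.4/aFGF and at 39.1, 51.2 and 52.9 CPM in 6.4/bFGF. Its ligand Tnfsf9 overlapped, at 6.77, 3.74 and 8.11 CPM against 5.198, 11.5 and 9.23 CPM.

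At pH 7.4, with 0% of 15049 genes called, 6 of 40 members had an unadjusted p under 0.05, 5 of them higher with aFGF, beside 13.0% of all genes in either direction and 6.57% higher. Groups did not overlap in 4 members, all higher with aFGF, beside 20.4% of all genes in either direction and 8.67% higher, and DESeq2 called 1, Tnfrsf12a, beside 268 of its 17891 genes (1.5%). After Tnfrsf12a, the smallest p values were those of Cd27 (log2 fold change 2.54, adjusted p = 0.363) and Tnfrsf18 (1.27, adjusted p = 0.372, both edgeR). Without 7.4/aFGF library 1 these fold changes became 0.98 and 0.73.

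The pH 8.4 groups gave the most. There 9 of 39 members had an unadjusted p under 0.05, 6 higher and 3 lower with aFGF, beside 21.1% of all genes, 11.7% higher and 9.42% lower, and 0.00665% of 15041 genes were called. In 11 of the 39 the groups did not overlap, beside 27.7% of all genes, so neither share stood far from that of all genes. DESeq2 called 3, Tnfrsf12a, Tnfsf10 and Tnfsf14, beside 5.27% of its genes. Besides Tnfrsf12a and Tnfsf14, Tnfrsf1a was higher with aFGF, at 472, 439.6 and 346 CPM against 301, 284 and 271 CPM (log2 fold change 0.56 ± 0.14, edgeR adjusted p = 0.128). Tnfsf10 (TRAIL), which kills transformed cells through death receptors, was lower, at 6.66, 11.2 and 7.53 CPM against 13.97, 15.45 and 14.9 CPM (-0.80 ± 0.23, edgeR adjusted p = 0.14). Its mouse death receptor Tnfrsf10b was at 13.3, 11.1 and 9.33 CPM in 8.4/aFGF and at 8.01, 11.0 and 9.80 CPM in 8.4/bFGF, which overlapped. Tnf itself, the leading ligand of wound inflammation, was at 15.5, 9.05 and 8.69 CPM in 8.4/aFGF and at 12.55, 26.2 and 23.65 CPM in 8.4/bFGF (-0.91 ± 0.35, edgeR adjusted p = 0.202), with overlap.

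**Figure D4:**
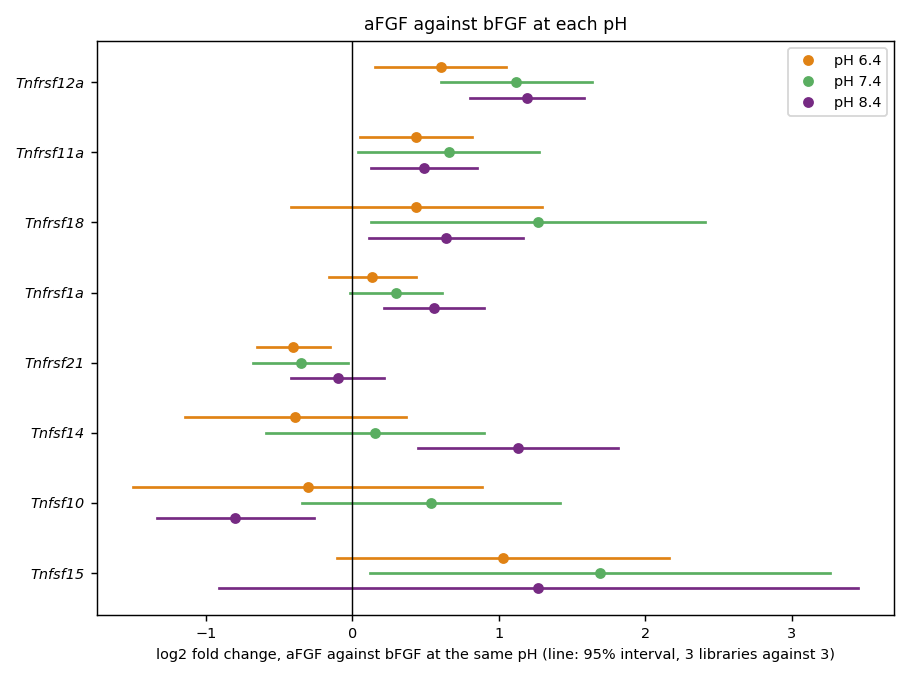
Log2 fold change of aFGF against bFGF at each pH (points, with 95% intervals from edgeR, 3 libraries against 3) for 8 members. The points of Tnfrsf12a, Tnfrsf11a, Tnfrsf18, Tnfrsf1a and Tnfsf15 lie above 0 at all 3 pH values, and Tnfsf14 and Tnfsf10 stand apart from 0 at pH 8.4, where they are 1.13 and -0.80.

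Within a growth factor, the pH comparisons called 0 members and 0% of genes, by edgeR. Between 6.4/aFGF and 7.4/aFGF, 40 members were tested and 3 had an unadjusted p under 0.05, all lower at pH 6.4, beside 4.99% of 15019 genes in either direction and 2.86% in the lower one. Groups did not overlap in 2 of the 40, Tnfsf14 and Cd27, both lower, beside 10.9% of all genes in either direction and 4.85% lower, and DESeq2 called 1, Tnfsf14, beside 0.112% of its genes. The median log2 fold change was -0.24 over members, with 27 of 40 lower, and 0.02 over all genes, of which 47.6% were lower. Cd27, a costimulatory receptor of T cells, was at 0.733, 0.836 and 0.916 CPM in 6.4/aFGF and at 10.55, 1.595 and 1.45 CPM in 7.4/aFGF. The log2 fold change of -2.43 ± 0.83 (edgeR adjusted p = 0.832) became -0.89 without 7.4/aFGF library 1. Its ligand Cd70 did not pass the filter on low counts in any comparison, with 60 counts over all libraries.

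Between 8.4/aFGF and 7.4/aFGF, 4 of 39 members had an unadjusted p under 0.05, all lower at pH 8.4, beside 3.01% of 14968 genes in either direction and 2.22% in the lower one. Groups did not overlap in 3, all lower, beside 8.58% of all genes in either direction and 3.71% lower, and DESeq2 called 0, beside 0.0726% of its genes. Fasl, with which cytotoxic lymphocytes kill cells through Fas, was at 0.4045, 0.386 and 0.4855 CPM in 8.4/aFGF and at 5.10, 1.07 and 1.235 CPM in 7.4/aFGF (-2.53 ± 0.69, edgeR adjusted p = 1.00). Tnfsf10 was at 6.66, 11.2 and 7.53 CPM against 31.05, 12.5 and 17.7 CPM (-1.27 ± 0.37, edgeR adjusted p = 1.00). Without 7.4/aFGF library 1 these became -1.46 and -0.86. Cd27 and Tnfrsf14 were the other 2. Both of these comparisons share the 7.4/aFGF libraries, and the T and NK cell sum was 203, 62.3 and 41.25 CPM in 7.4/aFGF, 27.0 to 55.3 CPM in 6.4/aFGF and 32.7 to 58.6 CPM in 8.4/aFGF.

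With bFGF, pH 6.4 against 7.4 gave 2 of 39 members with an unadjusted p under 0.05, Tnfrsf12a higher (0.57 ± 0.21, edgeR adjusted p = 0.549) and Tnfsf14 lower, beside 8.89% of 14976 genes. The groups overlapped in each of the 39, beside 15.3% of all genes that did not, and DESeq2 called 0, beside 0.632% of its genes. The third smallest p was that of Tnfrsf19, a receptor of hair follicle stem cells with an unsettled ligand, at 4.27, 3.18 and 2.29 CPM against 6.48, 9.21 and 2.92 CPM (-0.92, edgeR adjusted p = 0.581). For pH 8.4 against 7.4, 3 of 39 had an unadjusted p under 0.05, Tnfrsf14, Tnfsf14 and Fas, all lower, beside 5.72% of 15092 genes in either direction and 2.99% in the lower one. In 8 of the 39 the groups did not overlap, 7 lower and 1 higher at pH 8.4, beside 11.8% of all genes in either direction, 7.17% lower and 4.60% higher. DESeq2 called 1, Tnfsf14, beside 0.155% of its genes. Fas was at 32.3, 24.8 and 29.2 CPM against 32.8, 37.2 and 40.25 CPM (-0.33 ± 0.13, edgeR adjusted p = 0.861).

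The interaction of pH 6.4 against 7.4 with the growth factor called 0 of 40 members and 0% of 15449 genes by edgeR, and DESeq2 called 0 members and 0.153% of its genes. Cd27 alone had an unadjusted p under 0.05 (-2.89 ± 0.98, edgeR adjusted p = 0.804), beside 6.09% of all genes in either direction and 2.34% in the lower one, and it became -1.34 without 7.4/aFGF library 1. The next were Tnfrsf14 (-0.92, adjusted p = 0.828) and Tnfrsf12a (-0.53, 95% interval -1.19 to 0.13, adjusted p = 0.831). For pH 8.4, in the later interaction, edgeR and DESeq2 called 0 of 41 members, beside 0% of 15502 genes for edgeR and 0.0218% for DESeq2. Tnfsf10 alone had an unadjusted p under 0.05 (-1.35 ± 0.45, edgeR adjusted p = 0.993), beside 4.73% of all genes in either direction and 2.92% in the lower one.

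In the comparison with the controls, members were called higher in the hydrogel groups only when control library 2 was left out. With all 3 controls, edgeR called 0 of 44 members and 0.00632% of 15811 genes. An unadjusted p under 0.05 was found for 6 of the 44, all lower in the hydrogel groups, beside 16.7% of all genes in either direction and 10.4% in the lower one. The groups overlapped in each of the 44, while 0.607% of all genes did not overlap. DESeq2 called 1, Tnfrsf19, beside 0.908% of its genes. The smallest p values were those of Tnfrsf13b, Tnfrsf17 and Tnfrsf19. Tnfrsf13b (TACI) and Tnfrsf17 (BCMA) are receptors of the B cell survival factors Tnfsf13 and Tnfsf13b. Tnfrsf13b was at 16.4, 17.7 and 20.3 CPM in the controls and at 11.1 to 17.5 CPM (median 13.0) in the 18 hydrogel libraries, a log2 fold change of -0.47 ± 0.11 (edgeR adjusted p = 0.105). Tnfrsf17, with 174 counts in all, was at 1.05, 0.172 and 0.551 CPM against 0.027 to 0.428 CPM (-1.98 ± 0.51, edgeR adjusted p = 0.1205). Tnfrsf19 was at 8.22, 9.70 and 16.9 CPM against 1.96 to 9.21 CPM (-1.38 ± 0.36, edgeR adjusted p = 0.1205). The 6 B cell genes summed to 5.38 to 14.2 CPM in the controls and to 3.45 to 12.2 CPM in the hydrogel libraries. The 8 hair follicle genes summed to 24.7 to 33.2 CPM and to 15.4 to 39.0 CPM, and Dsc2 weighed most in that sum (mean 19.9 CPM over the 21 libraries). The part of both lists in these values was not tested.

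Without control library 2, 9 of the 44 members were called by edgeR, 7 higher and 2 lower in the hydrogel groups, beside 3.62% of 16069 genes called higher and 3.78% called lower. These members were named after their values had been seen. Control library 2 was singled out once results were known, and it was itself more than 2-fold above both other controls in Tnf, Tnfrsf1b, Tnfrsf9, Tnfsf11, Tnfsf14 and Tnfsf9. Leaving it out lowers the control level of these members, so their calls are no independent evidence of a difference from control. Groups of 18 and 2 libraries did not overlap in 7 members that were higher and 1 that was lower, beside 6.51% and 5.17% of all genes. The highest fold changes among called members were those of Tnfsf11, Tnf and Tnfrsf9, and Tnfsf8, which was not called, had a log2 fold change of 2.37 (edgeR adjusted p = 0.0561). Tnfsf11 was at 2.06 and 0.413 CPM in control libraries 1 and 3, at 13.3 CPM in control library 2 and at 5.21 to 15.2 CPM in the hydrogel libraries. Its log2 fold change was 2.97 ± 0.55 (edgeR adjusted p = 0.00731) without control library 2, and 0.89 (95% interval -0.37 to 2.14) with it. Tnf was at 3.16 and 2.23 CPM, at 43.8 CPM in control library 2 and at 6.01 to 26.3 CPM in the hydrogel libraries (2.30 ± 0.53, edgeR adjusted p = 0.0167, and -0.31 with it). Tnfrsf9 was at 8.70 and 4.82 CPM, at 99.0 CPM in control library 2 and at 15.1 to 83.6 CPM in the hydrogel libraries (2.29 ± 0.53, edgeR adjusted p = 0.0174, and -0.18 with it).

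For these 3 members and for Tnfsf14 and Tnfrsf1b, the lowest hydrogel library lay above control libraries 1 and 3, and the highest lay above control library 2 only for Tnfsf11. Tnfsf14 had a log2 fold change of 1.96 ± 0.43 (edgeR adjusted p = 0.0142), Tnfsf9 of 1.17, Tnfrsf1b of 0.96 and Tnfrsf12a of 0.65 without control library 2. Tnfrsf17 and Tnfrsf19 were the lower ones, at -2.41 and -1.50. The neutrophil sum was 1315 and 792 CPM in control libraries 1 and 3, 8950 CPM in control library 2 and 3300 to 13430 CPM in the hydrogel libraries, so it separated the same libraries as Tnf, Tnfsf11, Tnfsf14, Tnfrsf9 and Tnfrsf1b did. So did 2 lists described below. TNF response targets summed to 1461, 8589 and 1438 CPM in the controls and to 2495 to 10310 CPM with hydrogel. NF-kappa B factors and feedback summed to 689, 2190 and 688 CPM and to 820 to 1857 CPM. The sums over TNF receptor signalling genes and over macrophage and monocyte genes overlapped with control libraries 1 and 3. The part of these lists in these differences was not tested.

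Control library 2 exceeded both other controls more than 2-fold in 16 of the 44 members (36.4%), beside 7.41% of all genes, and its summed CPM over members was 2183 against 996 and 965. In 7.4/aFGF library 1 the same held against the other 7.4/aFGF libraries for 10 members (22.7%), beside 3.76% of all genes. Those 10 were Cd27, Cd40, Cd40lg, Fasl, Lta, Ltb, Tnfrsf13c, Tnfrsf18, Tnfrsf4 and Tnfrsf8, named after their values had been seen, most of which are known from lymphocytes. Among the 44 members tested, this library was the highest of all 21 in 10, beside 12.3% of genes, and control library 2 in 9, beside 5.74% of genes.

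**Figure D5:**
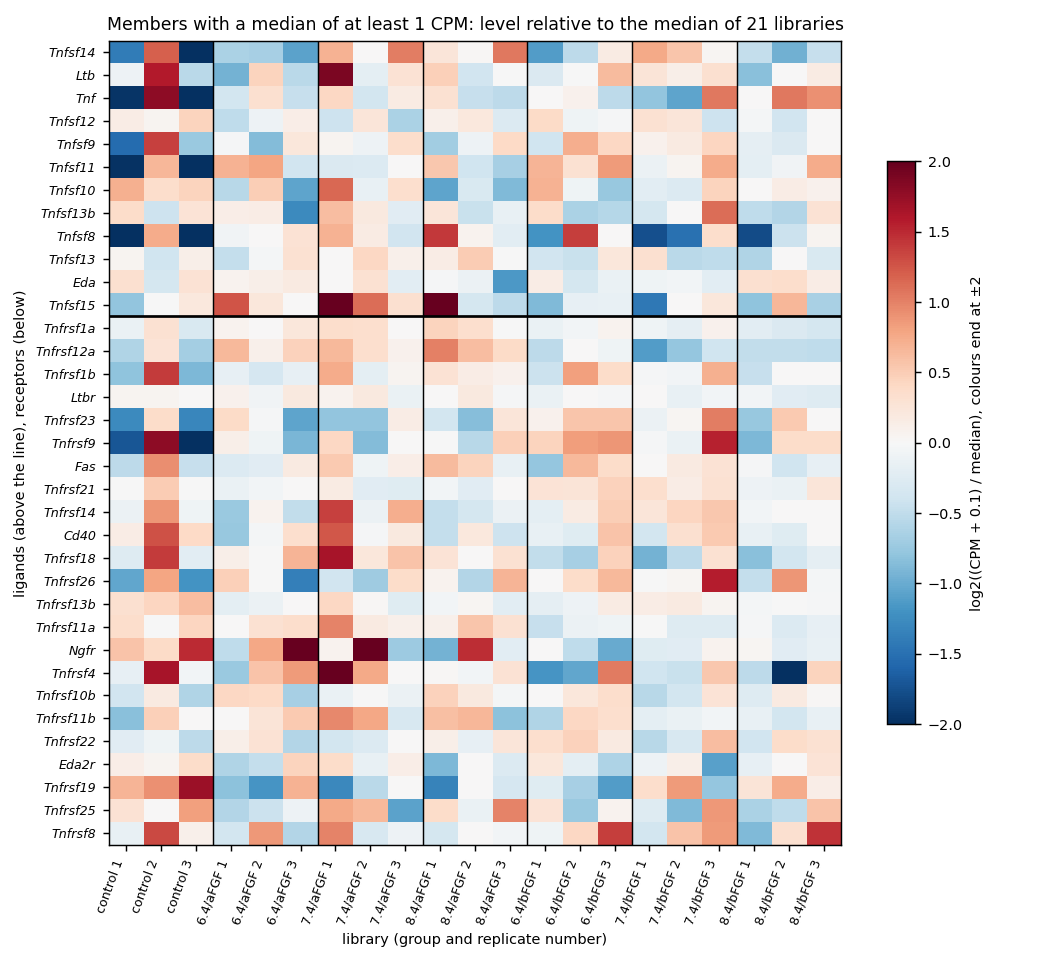
Level of the members with a median of at least 1 CPM in each library, as log2 of (CPM + 0.1) relative to the median of the 21 libraries (colours end at 2 in either direction), ligands above the line and receptors below. Control library 2 is red for Tnf, Tnfrsf9, Tnfsf14 and Ltb where the other controls are blue or pale, 7.4/aFGF library 1 is red for Ltb, Tnfrsf18 and Tnfrsf4, and Ltbr is pale throughout.

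The genes downstream of the receptors were read from 3 lists. TNF receptor signalling held 32 adaptors, kinases and ubiquitin ligases, NF-kappa B factors and feedback held 12 genes, and TNF response targets held 20 chemokines, cytokines and other genes that Tnf is known to induce. In each of the 10 comparisons planned, edgeR called 0 genes of any list. Between 6.4/aFGF and 7.4/aFGF, 29 of the 32 signalling genes were lower at pH 6.4, but the median log2 fold change was only -0.13, against 0.02 over all genes, and 1 of the 32 had an unadjusted p under 0.05, beside 4.99% of all genes. That gene was Rnf31, a subunit of the linear ubiquitin ligase (-0.56 ± 0.13, edgeR adjusted p = 0.832). The NF-kappa B list had 9 of 12 lower (median -0.09) with 2 genes higher at an unadjusted p under 0.05, and the target list had 9 of 20 lower (median 0.10) with 1 gene at an unadjusted p under 0.05. Between 8.4/bFGF and 7.4/bFGF, 27 of 32 signalling genes were lower (median -0.08), 5 of them with an unadjusted p under 0.05, beside 2.99% of all genes lower.

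The target genes stood highest in 8.4/aFGF against 8.4/bFGF, where 19 of 20 were higher, 13 of them with an unadjusted p under 0.05, beside 11.7% of all genes higher. The median log2 fold change was 1.09 over these targets and -0.01 over all genes. Groups did not overlap in 10 of the 20, beside 14.9% of all genes higher. Cxcl5, a chemokine that attracts neutrophils, was at 690.5 CPM on average against 300.4 CPM (1.2 ± 0.26, edgeR adjusted p = 0.113). Tnfaip8 was at 79.3 against 59.4 CPM (0.42 ± 0.11, edgeR adjusted p = 0.127). Over the whole list the summed level was 10310, 4553 and 4341 CPM in 8.4/aFGF and 2731, 3949 and 3307 CPM in 8.4/bFGF, so the groups did not overlap and library 1 of 8.4/aFGF stood highest. In the same libraries the log2 fold change of Tnf itself had the opposite sign, and all 9 neutrophil genes were higher (median 1.17), although their sum overlapped, at 4954 to 11650 CPM against 3758 to 9506 CPM. The macrophage and monocyte sum did not overlap, at 7038 to 10890 CPM against 4962 to 6602 CPM. The part of these cell types in the target genes was not tested. In the added comparison over the 3 pH values, edgeR called 0 of 32 signalling genes, 1 of 12 NF-kappa B genes and 2 of 20 targets, all higher with aFGF. These were Nfkb1 (0.87 ± 0.19, adjusted p = 0.0126), Sele, an endothelial adhesion molecule for leukocytes (1.18 ± 0.31, adjusted p = 0.0265), and Socs3, a feedback inhibitor of cytokine signalling (0.75 ± 0.23, adjusted p = 0.0494), beside 3.77% of all genes.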

How the data were processed

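Total RNA of the wounds was made into libraries with a stranded mRNA kit, 3 libraries for each of 7 groups. Per the labels, reads were processed against GRCm39, and the aligner and the counting tool are not given in the sources used here. The authors deposited raw counts and FPKM per gene. FPKM divided by counts gave 1 length per gene over the libraries within 9.85e-05% for the 14938 genes with a count in every library. Symbols were looked up in a RefSeq table of another build (99.2% found, all 45 members), so no coordinates are given.

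Counts were filtered with filterByExpr, normalized by TMM and tested with edgeR 4.0.16 (quasi-likelihood, R 4.3.3), on the libraries of each comparison, with Benjamini-Hochberg adjustment over all genes tested. CPM were taken from the fit of all 21 libraries. DESeq2 1.42.0, limma 3.58.1 on log2(FPKM + 1), RLE normalization, other filters and leaving out each library were alternatives. The scripts were tested on simulated data. Replicate numbers did not pair samples across groups, since each mouse was assigned to 1 group. Over 63 pairs of libraries with the same number, the deviations from the group means correlated at -0.638 to 0.423 (median 0.00889).

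The members, gene lists and tests were chosen with earlier results of these data known. Named with values were Tnfsf14, members called, the 3 members with the smallest p in each comparison, the 5 ligands and 10 receptors of highest FPKM, and their binding partners. The comparison of aFGF with bFGF over 3 pH values, the interaction for pH 8.4, Tnfsf14 in comparisons that its rule did not list, and the full fit without control library 2 were later additions, chosen once results were known.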

Additional observations from a re-analysis of the deposited data

How the results depend on the processing

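The count of called members was 0 in each of the 10 planned comparisons and 2 in aFGF against bFGF over 3 pH values. DESeq2 called 6 (beside 11.0% of all genes it tested) in the 7 groups, 1 (0.112%) in 6.4/aFGF against 7.4/aFGF, 1 (0.155%) in 8.4/bFGF against 7.4/bFGF, 1 (0.908%) in hydrogels against control, 1 (268 genes) in 7.4/aFGF against 7.4/bFGF, 3 (5.27%) in 8.4/aFGF against 8.4/bFGF and 4 (4.57%) in aFGF against bFGF. In the 7 groups, limma on log2(FPKM + 1) and on log2(FPKM + 0.1) called 1 (0.123%), and leaving out 1 library gave 0 to 4, with 4 (5.38%) without control library 2 and 1 (0.815%) without 8.4/aFGF library 3. Leaving out 1 library gave 0 to 9 in hydrogels against control, with 9 (1189 genes) without control library 2, and 0 to 1 in 8.4/aFGF against 8.4/bFGF, with 1 (1.12%) without 8.4/aFGF library 3. In aFGF against bFGF, no fold threshold gave 5 (13.0%), limma with no filter 1 (1.21%), the fit of all 21 libraries 1 (506 genes), and leaving out 1 library 1 to 4, with 4 (5.12%) without 7.4/aFGF library 3. The replicate number as a block gave 0 members in each planned comparison and 2 in aFGF against bFGF. The log2 fold change of Tnfsf14 changed sign in 8.4/aFGF against 7.4/aFGF (0.13 without 7.4/aFGF library 3 and 0.058 without 8.4/aFGF library 2) and in 7.4/aFGF against 7.4/bFGF (-0.099 without 7.4/aFGF library 3 and -0.037 without 7.4/bFGF library 3), where leaving out 1 library gave -0.50 to 0.13 and -0.099 to 0.39. The cause was not tested. Over 42 results for named members and 815 alternatives, 778 kept direction and side of the threshold, 17 passed it, 16 lost it and 4 changed sign.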
